A study of Mus musculus with 10 samples.

Results

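Among 18193 genes read by a probe set with a single gene symbol, 34 had a signal at least 2-fold lower in livers of DBA/2J mice than in livers of C57BL/6J mice at each of 5 time points. The 34 genes were chosen by the deposited signals themselves. For each gene the probe set with the highest mean over the 10 arrays was taken, 16 was added to both signals of a week, and the ratio of C57BL/6J to DBA/2J, called the same-week ratio below, had to be 2 or more at every week. In all, 41 genes met this condition, which is 0.225% of the 18193, and 7 of them (Cyp2c23, Cyp3a13, Hc, Ildr2, Lpin1, Lyve1 and Mndal) were left out by symbol. In the opposite direction, 32 genes met the same condition. Since the strain difference chose the genes, it is described here and not tested.

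Liver RNA came from females of 2 inbred strains, C57BL/6J and DBA/2J. No treatment is named other than the diet, which was high in fat and cholesterol, and no genetic change other than strain. A single array per strain was taken at week 0, before feeding began, and 4 fed arrays per strain followed after 1, 4, 12 and 21 weeks on the diet. Each array, an Affymetrix mouse expression array, held a pool of 5 mice, so the spread over arrays includes time on the diet, and the number of arrays limits the precision. The ages of the mice are not given in the sources used here.

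Inbred strains are homozygous at nearly all loci and differ from one another at many of them, so that alleles which alter a transcript's level, its splicing or its copy number are fixed in all mice of a strain. An expression array reads a transcript through sets of short probes, usually near its 3′ end, and a probe set reports a part of the transcript, not the whole gene. Whether DBA/2J sequence matches the probes of these 34 genes was not tested.

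The arrays differed in overall brightness. The median signal over all probe sets ranged from 10.5 to 16.05, and the C57BL/6J median was 0.935, 1.28, 1.36, 0.929 and 0.964 times the DBA/2J median at weeks 0, 1, 4, 12 and 21. After quantile normalisation, which removes such differences, 31 of the 34 genes still had a ratio of 2 or more at every week, and 2610507I01Rik, 4833420G17Rik and Plekhb1 did not. With each array divided by its median instead, 28 did, and Dstn, Pxdc1 and Rps4l were lost as well. The tissue was liver by its markers, with 9 hepatocyte genes on the array summing to between 41489 and 47975 in C57BL/6J and between 43590 and 49261 in DBA/2J. The summed signal of 14 macrophage markers was 2686, 8935, 20776, 3654 and 11605 over the weeks in C57BL/6J and 3039.7, 4703, 3447, 3979.7 and 5620.3 in DBA/2J. None of the 14 was below the array median on every array, and the part of these cells in the results below was not tested. None of the marker genes listed for hepatocytes, macrophages, stellate cells, endothelium, lymphocytes, blood cells and cholangiocytes met the 2-fold condition.

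The gap was wide enough that the strains did not overlap in 33 of the 34 genes, whose lowest C57BL/6J signal lay above the highest DBA/2J signal. Over all genes the share of such genes was 1.71%, and nothing is read from the members' count, since the rule fixed it. Plekhb1 was the exception. In C57BL/6J all 34 genes lay above the array median at every week, and the rule nearly fixed this count as well. With 16 added to both signals, it asks for a C57BL/6J signal of at least 16. The highest array median was 16.05. In DBA/2J, 22 genes lay above the array median at every week, 6 at some weeks, and 6 at none. Over all genes, 30.3% lay below it in DBA/2J at every week. Nothing is read from that difference, since the rule asks for signal in C57BL/6J. The smallest of the 5 ratios ranged from 2.02 to 7.90 over the genes, with 10 genes at 3 or more and 18 under 2.5, and the median of the genes' middle ratios was 3.72, against 1.01 over all genes.

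**Figure D1:**
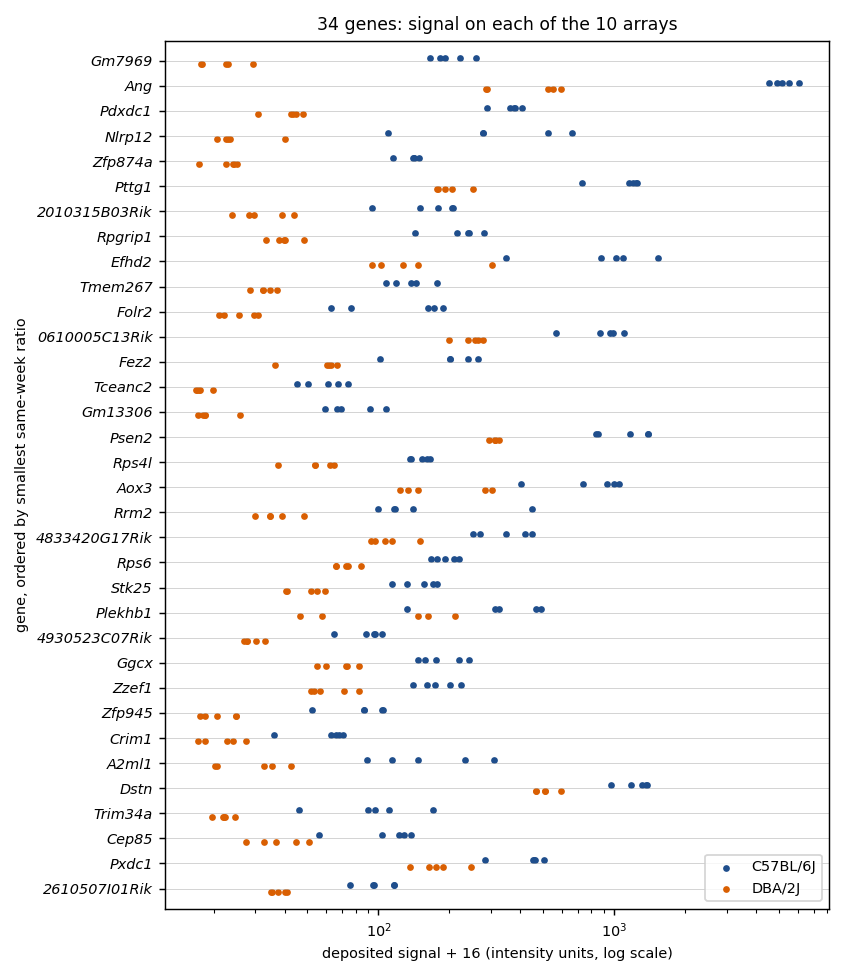
Signal of the 34 genes on each of the 10 arrays, as the deposited value plus 16 on a log axis, with 5 C57BL/6J points (blue) and 5 DBA/2J points (orange) per gene and genes ordered by their smallest same-week ratio. The strains overlap in Plekhb1 and are apart in the other 33 genes.

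Upstream sequences of 6 of the genes are shown because 4 of them had the largest smallest ratio among genes listed in the RefSeq promoter table (build GRCm38.p6, the C57BL/6J genome), and the other two, Crim1 and Fez2, lie side by side on chromosome 17. The 250 bases before each start site are given 5′ to 3′, for Ang at chr14:51090827-51091076, plus strand, Pdxdc1 at chr16:13903146-13903395, minus strand, Nlrp12 at chr7:3249741-3249990, minus strand, Zfp874a at chr13:67451625-67451874, minus strand, Fez2 at chr17:78418153-78418402, minus strand, and Crim1 at chr17:78199998-78200247, plus strand. Capitals mark matches on either strand to 3 promoter motifs. One is the TATAAA motif, where the basal transcription machinery can bind. Another is CCAAT, a motif bound by nuclear factor Y. The last is the GC box GGGCGG, a motif bound by Sp family factors.
Ang: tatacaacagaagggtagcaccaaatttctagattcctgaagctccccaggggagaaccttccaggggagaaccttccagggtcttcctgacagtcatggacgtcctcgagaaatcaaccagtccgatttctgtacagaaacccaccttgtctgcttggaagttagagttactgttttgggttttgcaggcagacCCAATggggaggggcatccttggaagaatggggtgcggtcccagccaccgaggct
Pdxdc1: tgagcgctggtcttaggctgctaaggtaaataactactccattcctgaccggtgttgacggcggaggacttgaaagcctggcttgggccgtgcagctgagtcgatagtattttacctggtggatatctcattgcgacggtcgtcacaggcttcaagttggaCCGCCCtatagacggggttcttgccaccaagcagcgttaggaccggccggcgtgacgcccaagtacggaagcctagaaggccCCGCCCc
Nlrp12: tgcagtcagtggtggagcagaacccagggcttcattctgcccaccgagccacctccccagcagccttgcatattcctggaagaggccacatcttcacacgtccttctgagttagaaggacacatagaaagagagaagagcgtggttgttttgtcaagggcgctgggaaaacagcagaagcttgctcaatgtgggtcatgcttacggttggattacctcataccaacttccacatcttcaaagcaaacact
Zfp874a: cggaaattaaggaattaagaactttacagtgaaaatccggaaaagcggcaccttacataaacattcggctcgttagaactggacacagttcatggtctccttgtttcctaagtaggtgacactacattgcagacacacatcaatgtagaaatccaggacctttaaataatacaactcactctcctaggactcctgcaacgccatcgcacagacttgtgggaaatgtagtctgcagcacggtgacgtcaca
Fez2: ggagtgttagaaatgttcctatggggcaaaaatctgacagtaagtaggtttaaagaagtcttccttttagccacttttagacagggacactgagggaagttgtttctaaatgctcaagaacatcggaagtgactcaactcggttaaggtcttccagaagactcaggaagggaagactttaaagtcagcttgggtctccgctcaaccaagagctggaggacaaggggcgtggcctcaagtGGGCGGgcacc
Crim1: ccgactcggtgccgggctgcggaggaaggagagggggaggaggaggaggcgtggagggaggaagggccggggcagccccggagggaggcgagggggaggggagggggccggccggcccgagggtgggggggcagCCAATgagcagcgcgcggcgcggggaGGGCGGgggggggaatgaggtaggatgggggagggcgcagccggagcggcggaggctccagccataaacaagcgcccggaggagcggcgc

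Of the 34 genes, 32 had an entry in the table, and Gm7969 and Rps4l did not. A GC box stood in 17 of the 32 upstream windows (53.1%), against 32.9% of 27025 genes in the table. The CCAAT motif stood in 11 (34.4%, against 34.5%) and the TATAAA motif in 3 (9.38%, against 12.97%). The windows of Nlrp12 and Zfp874a held none of these letters, and that of Ang held CCAAT only. The median share of G and C was 57% in the 32 windows and 52% over the table. These are descriptions of the C57BL/6J reference, since no DBA/2J sequence was used here. The genes of the table were not limited to those on the array or with signal in liver, while the rule asks for signal in C57BL/6J. The 2 sets are therefore unlike, and nothing is read from the difference in shares.

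The genes Gm7969, Zfp874a and Pdxdc1 mark the set, and the DBA/2J signals of the first pair were near or below the array medians. Gm7969 is annotated as a long noncoding RNA. Its signals at weeks 0, 1, 4, 12 and 21 were 242, 166, 175, 149 and 207 in C57BL/6J and 13.4, 7.004, 1.64, 1.803 and 6.59 in DBA/2J. The same-week ratios were 8.79, 7.895, 10.9, 9.28 and 9.86, so the smallest of them was larger than that of any other of the 34 genes. A second probe set of Gm7969 also had a ratio above 2 at every week (4.49 to 7.01), and one more, below the array median on all arrays, had 1.09 to 1.46.

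Zfp874a encodes a zinc finger protein of the large family of DNA-binding regulators, many of whose genes lie in clusters. Its signals were 99.2, 133, 126, 125 and 125 in C57BL/6J and 9.11, 8.31, 1.33, 6.58 and 8.26 in DBA/2J, with ratios of 4.59, 6.13, 8.18, 6.22 and 5.804. It had a single probe set. The 5 DBA/2J signals were all below the median of their arrays. Gm7969 and Zfp874a lay on chromosome 13 with 12 array genes between them. The genes beside Gm7969 had ratios of 0.688 to 1.09 (BC048507) and 0.902 to 1.67 (AA414992). They averaged 2.54 and 6.71 in C57BL/6J, too dim to show a 2-fold gap. The next zinc finger gene on either side of Zfp874a had ratios of 0.856 to 1.61 (Zfp429) and 0.654 to 1.196 (Zfp874b, a relative by name). Both were dim as well, averaging 15.1 and 12.9 in C57BL/6J, so their ratios cannot show whether they share the gap. Near-identical family members can share probes, so a signal of this family is uncertain as to its gene.

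Pdxdc1, which encodes a protein related to pyridoxal-dependent decarboxylases, gave opposite answers by probe set. The probe set that represents it was at 273, 390.1, 345, 364 and 358 in C57BL/6J and 26.8, 27.5, 14.7, 31.9 and 28.8 in DBA/2J, with ratios of 6.76, 9.32, 11.7, 7.94 and 8.35. Another probe set of the gene averaged 5.62 in C57BL/6J and 341 in DBA/2J, with ratios of 0.0479 to 0.0762, so it was lower in C57BL/6J at every week. The remaining probe sets had ratios of 1.16 to 3.23 and 1.302 to 1.84. Over its 4 probe sets, Pdxdc1 was thus higher in C57BL/6J by 3 and higher in DBA/2J by 1, and these arrays give no single direction for the gene.

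Ang encodes angiogenin, a secreted ribonuclease made by hepatocytes, and was the second gene in order of its smallest ratio. Its signals were 4517, 4862, 5506, 6064 and 5136 in C57BL/6J and 576, 271, 272, 531 and 507 in DBA/2J, or 5217 ± 596 and 431 ± 148 (mean ± SD, n = 5 arrays each), and the ratios were 7.66, 17.01, 19.2, 11.1 and 9.85. The C57BL/6J arrays varied little, while DBA/2J was lowest at weeks 1 and 4. This probe set is of a kind that can bind transcripts of several related genes. A second probe set, of the design that can bind unrelated sequence, went the same way with ratios of 2.02 to 3.595. Another, of neither design, went the other way with 0.481 to 0.758, below 1 at every week. It was bright, with means of 1106 in C57BL/6J and 1974 in DBA/2J, so these arrays give no single direction for Ang. Rnase4, the ribonuclease gene next to Ang, had ratios of 0.698 to 1.14.

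A2ml1, an alpha-2-macroglobulin-like protease inhibitor gene, was at 73.2, 292, 216, 131 and 98.1 in C57BL/6J and 26.5, 16.8, 4.65, 19.4 and 4.33 in DBA/2J. Its ratios were 2.096, 9.39, 11.2, 4.14 and 5.61, so the gap just met the threshold before the diet and was widest at weeks 1 and 4. Crim1 encodes a membrane protein that binds bone morphogenetic proteins and was at 20.2, 50.1, 54.7, 46.98 and 51.9 in C57BL/6J and 1.25, 6.803, 11.4, 2.34 and 8.21 in DBA/2J. The C57BL/6J signal was lowest before the diet and the fed arrays lay close together. A second Crim1 probe set had ratios of 1.15 to 1.45, above 1 but under 2. Ggcx, the carboxylase that activates vitamin K-dependent clotting factors, had ratios of 2.44, 4.405, 3.003, 2.13 and 2.15 by the probe set that represents it, and a second probe set had 0.801 to 1.59, on both sides of 1.

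Genes of innate immunity and of myeloid cells followed different courses. Nlrp12, a NOD-like receptor gene that restrains inflammatory signalling, was at 643, 261, 93.3, 260.4 and 508 in C57BL/6J and 24.04, 4.65, 6.63, 7.52 and 7.097 in DBA/2J. Its ratios were 16.4, 13.4, 4.83, 11.8 and 22.7. The ratio was smallest at week 4, when the C57BL/6J signal was lowest, and DBA/2J lay above its array median at week 0 only. Trim34a, a member of the TRIM family of antiviral ubiquitin ligases, was at 29.9, 94.9, 154, 74.1 and 80.5 in C57BL/6J and 6.03, 5.93, 3.74, 6.42 and 8.72 in DBA/2J, where all 5 arrays were below their medians. Its ratios were 2.08, 5.06, 8.605, 4.02 and 3.904. A second probe set of Trim34a had ratios of 0.462 to 0.976, below 1 at every week. Trim12a, which stands 2 array genes away, had ratios of 1.73 to 6.63, and genes of one family can share probes, so their signals are uncertain.

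Folr2, a folate receptor gene that marks resident macrophages, was at 46.99, 172, 156, 60.6 and 147 in C57BL/6J and 5.09, 14.99, 9.67, 6.11 and 13.7 in DBA/2J. The C57BL/6J signal was high at weeks 1, 4 and 21 and low at weeks 0 and 12, and those were also the weeks at which the macrophage markers summed highest and lowest in that strain. At weeks 0 and 12 the marker sum of C57BL/6J was 0.884 and 0.918 times that of DBA/2J, while the Folr2 ratios were 2.99 and 3.47. In bulk tissue, fewer cells of a type and less RNA per cell cannot be told apart. Efhd2 encodes a calcium-binding protein of the actin skeleton that is abundant in leukocytes. Its signals were 331, 864, 1523, 1002 and 1068 in C57BL/6J and 86.3, 111, 77.9, 130.4 and 286 in DBA/2J. The ratios were 3.396, 6.94, 16.4, 6.96 and 3.58, the largest at week 4, when the macrophage marker sum of C57BL/6J was 6.03 times that of DBA/2J. A second Efhd2 probe set had ratios of 1.38 to 3.36.

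Pttg1 encodes securin, the inhibitor of sister chromatid separation, and was at 713, 1138, 1226, 1179.5 and 1221 in C57BL/6J and 163, 189, 176, 161 and 235 in DBA/2J. The ratios were 4.08, 5.63, 6.47, 6.75 and 4.92, and the other probe sets gave 2.79 to 4.75 and 1.65 to 2.24, so all of them were higher in C57BL/6J at every week. Rrm2, a subunit of ribonucleotide reductase that is made in cells replicating DNA, was at 101, 432, 83.4, 101 and 124 in C57BL/6J and 32.2, 22.9, 13.9, 18.6 and 18.7 in DBA/2J. The week 1 array of C57BL/6J stood alone, with a ratio of 11.5, while the other weeks had 2.43 to 4.03. The remaining Rrm2 probe sets had ratios of 1.9994 to 10.4 and 1.85 to 10.7, each under 2 at its lowest. Cep85, a centrosome protein gene, was at 40.1, 106, 121, 112 and 87.9 in C57BL/6J and 11.4, 16.6, 20.9, 28.5 and 34.6 in DBA/2J, with ratios of 2.05, 3.74, 3.72, 2.87 and 2.05, and its second probe set had 1.203 to 1.93.

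Among enzymes and signalling proteins, Aox3, an aldehyde oxidase of the liver that oxidises drugs and aldehydes, was at 385, 917, 1031, 985 and 721 in C57BL/6J and 117, 108, 266, 131 and 286 in DBA/2J, with ratios of 3.02, 7.55, 3.71, 6.83 and 2.44. DBA/2J was high at weeks 4 and 21, and C57BL/6J was low before the diet. Psen2 encodes a presenilin, the catalytic part of gamma-secretase. It was at 819, 1368, 1374, 839.9 and 1151 in C57BL/6J and 308, 297, 279, 297 and 297 in DBA/2J, where the 5 arrays were nearly equal (296 ± 10.6, SD, n = 5 arrays). A second Psen2 probe set had ratios on both sides of 1 (0.5898 to 1.33). Stk25, a kinase gene, had ratios of 2.83, 3.43, 4.16, 2.22 and 2.83 and a single probe set.

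Of the genes of the cytoskeleton, cilia and membranes, Dstn encodes destrin, which depolymerises actin filaments, and was at 954, 1362, 1351, 1158 and 1294 in C57BL/6J and 449, 448, 493, 491 and 579.6 in DBA/2J. The ratios ranged narrowly, at 2.09, 2.97, 2.69, 2.32 and 2.2. Rpgrip1, a cilium protein gene best known from photoreceptors, was at 126, 224, 265, 225 and 199.5 in C57BL/6J and 21.9, 24.1, 17.2, 23.7 and 32.2 in DBA/2J. Its ratios were 3.76, 5.98, 8.47, 6.08 and 4.47, and its 3 other probe sets were below the array median on all arrays. Plekhb1 encodes a membrane protein with a pleckstrin homology domain, and its signals were 116, 296, 309.9, 449 and 471 in C57BL/6J and 30.6, 41.6, 131, 146 and 195 in DBA/2J. Its lowest C57BL/6J signal, at week 0, lay below 3 of the 5 DBA/2J signals, so the strains overlapped although every same-week ratio was above 2 (2.21 to 5.43). Pxdc1, a gene for a protein with a PX domain, had ratios of 2.07, 2.76, 2.43, 2.04 and 2.64 and was among those closest to the threshold. Fez2 and Tmem267 are described with their neighbours below.

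Genes of protein and RNA synthesis included Rps6, a protein of the small ribosomal subunit. The probe set that represents it was at 161, 193, 176, 151 and 204 in C57BL/6J and 58.4, 49.9, 50.3, 57.01 and 68.6 in DBA/2J, with ratios of 2.38, 3.17, 2.89, 2.29 and 2.596. A second Rps6 probe set had 0.922 to 1.74. Rps4l, annotated as a transcribed pseudogene of a ribosomal protein, was at 120.4, 149, 145, 137 and 121 in C57BL/6J and 21.5, 38.01, 48.8, 46.2 and 37.7 in DBA/2J, with ratios of 3.63, 3.05, 2.48, 2.47 and 2.55. Ribosomal protein genes have many near copies in the genome, so both signals are uncertain as to their source. Tceanc2, whose protein carries a domain of the transcription elongation factor TFIIS, was at 29.2, 51.5, 58.3, 34.1 and 45.2 in C57BL/6J and 0.779, 1.502, 1.05, 1.32 and 3.93 in DBA/2J. All 5 DBA/2J signals of Tceanc2 were below their array medians, the ratios were 2.69, 3.85, 4.35, 2.895 and 3.07, and a second probe set had 1.12 to 2.09. Zfp945, another zinc finger gene, was at 36.4, 70.4, 88.8, 87.2 and 70.9 in C57BL/6J and 8.94, 1.44, 2.32, 8.82 and 4.57 in DBA/2J, with ratios of 2.101, 4.95, 5.72, 4.16 and 4.22, but its other probe sets had 0.642 to 0.909 and 0.761 to 1.26. Zzef1, a gene named for its ZZ zinc finger and EF-hand domains, had ratios of 2.105 to 4.32, and of 0.829 to 1.38 and 0.9897 to 1.33 by its other probe sets.

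By symbol, 7 of the 34 genes (20.6%) were predicted genes or unnamed transcripts, against 10.1% of all genes, and by annotation 3 were long noncoding RNAs (8.82%, against 8.01%). Beside Gm7969, the 7 predicted or unnamed genes were 0610005C13Rik, 2010315B03Rik, 2610507I01Rik, 4833420G17Rik, 4930523C07Rik and Gm13306. The 3 noncoding genes were Gm7969, 0610005C13Rik and 2610507I01Rik, and the others of the 7 are annotated as protein coding. The noncoding RNA 0610005C13Rik was at 547, 853, 969.7, 938 and 1083 in C57BL/6J and 183, 223, 249, 240.1 and 261 in DBA/2J, with ratios of 2.83, 3.64, 3.72, 3.72 and 3.97. For 2010315B03Rik the signals were 77.9, 188, 192, 134 and 164 in C57BL/6J and 7.93, 13.6, 22.99, 12.3 and 27.98 in DBA/2J, with ratios of 3.92, 6.897, 5.33, 5.29 and 4.08. Gm13306 was at 43.4, 50.8, 53.6, 91.1 and 75.7 in C57BL/6J, highest at week 12, and at 2.396, 9.799, 2.47, 1.09 and 2.01 in DBA/2J, below the array median at all weeks. The ratios of 4930523C07Rik ranged from 2.15 to 3.85, and 3 other probe sets of it above the array median on some arrays had 1.57 to 2.55, 1.41 to 2.2 and 1.51 to 2.11. The noncoding RNA 2610507I01Rik had 2.02, 3.28, 2.37, 2.71 and 2.84, and its second probe set had 2.296 to 3.28. Of the other name families, 2 genes were zinc finger genes by symbol (5.88%, against 2.24%), 2 ribosomal protein or histone genes (5.88%, against 0.352%), 2 innate immune genes (5.88%, against 0.808%) and 1 an oxidoreductase or esterase (2.94%, against 0.737%). None of the 34 was a solute carrier, a lymphoid receptor, a secreted protein or a protease by the symbols listed for those families, although Ang is secreted. The lists were chosen with earlier results of these data known. All genes include those without signal in C57BL/6J, for which the rule asks. Nothing is therefore read from the differences in these shares.

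At the threshold, the smallest ratios of the members just inside it were 2.02 (2610507I01Rik), 2.04 (Pxdc1), 2.05 (Cep85) and 2.08 (Trim34a). The genes just outside it were Ttc38 (1.998), Gm19696 (1.99), Sat2 (1.95) and Xdh (1.94). For each of these 4 outside genes, week 0 gave the smallest ratio.

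The width of the gap changed over the weeks. The median same-week ratio of the 34 genes was 2.81, 4.45, 4.01, 3.595 and 3.66 at weeks 0, 1, 4, 12 and 21, and week 0 held the smallest ratio in 21 of the 34 genes (61.8%, against 26.3% of all genes). Among the 279 genes whose mean signal was at least 2-fold higher in C57BL/6J, with no condition on single weeks, week 0 held the smallest ratio in 62.4%. Week 4 held the largest ratio in 14 of the 34 genes (41.2%) in 68.5% of the 279 and in 31.1% of all genes. After quantile normalisation the medians were 3.003, 3.63, 3.32, 3.75 and 3.86, and week 0 held the smallest ratio in 15 of the 34 genes (44.1%), in 56.3% of the 279 and in 23.9% of all genes. By deposited signals, the largest ratio of Gm7969, Pdxdc1 and Zfp874a was 1.37, 1.74 and 1.78 times the smallest, and the least variable gene was Pxdc1, at 1.35. After quantile normalisation the Gm7969 ratios ranged from 6.44 to 10.5. The gap in deposited signals varied most in A2ml1, Efhd2, Rrm2, Nlrp12 and Trim34a, where the largest ratio was 5.35, 4.83, 4.75, 4.69 and 4.13 times the smallest.

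**Figure D2:**
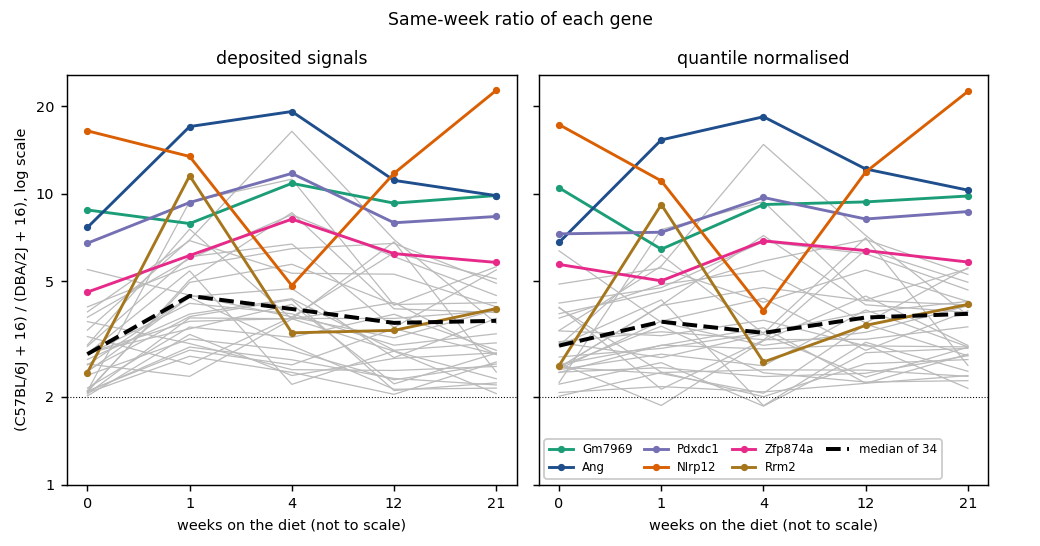
Same-week ratio of each of the 34 genes against weeks on the diet (evenly spaced, log ratio axis), from deposited signals (left) and after quantile normalisation (right), with 6 genes coloured, the median of the 34 dashed and the ratio of 2 dotted. The deposited medians go from 2.81 at week 0 to 4.45 at week 1, and Nlrp12 has its smallest ratio and Ang its largest at week 4 in both panels.

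Other probe sets of the same genes were not used by the rule, though they come from the same arrays. Of the 34 genes, 15 had no other probe set, and 19 had 35 in all. Of the 35, 5 (14.3%) also had a ratio of 2 or more at every week, against 0.197% of 16752 over all genes. The 5 belonged to 2610507I01Rik, 4833420G17Rik, Ang, Gm7969 and Pttg1. Among other probe sets above the array median on 1 array or more, the shares were 17.2% of 29 and 0.3% of 10987. The arrays and the contrast are those of the rule, so these shares describe the members and test nothing. C57BL/6J was the higher strain at every week in 19 of the 35 (54.3%, against 8.08%), and the median of their middle ratios was 1.25, against 1.01. DBA/2J was the higher strain at every week in 4, which belonged to Ang, Pdxdc1, Trim34a and Zfp945, and only that of Pdxdc1 was 2-fold or more. For the 15 genes with no other probe set, the gap rests on 1 probe set each. Of the probe sets that represent the 34 genes, 4 (Ang, Pttg1, Efhd2 and 4833420G17Rik) are of the design that reads several transcripts, and 2 (Gm7969 and Rrm2) of the design that can bind unrelated sequence (11.8% and 5.88%, against 5.02% and 3.397% over all genes), so these signals are uncertain as to their gene.

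**Figure D3:**
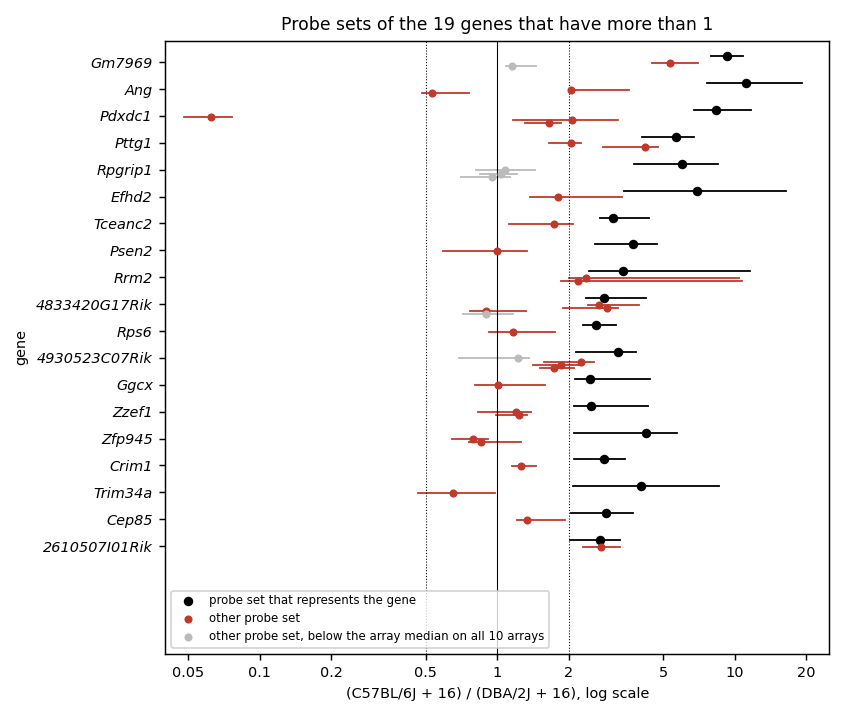
Same-week ratios of every probe set of the 19 genes with more than 1, on a log axis, as the middle of 5 weeks (point) and the lowest to highest week (line). Black marks the probe set that represents the gene, red other probe sets and grey those below the array median on all 10 arrays. The red point near 0.06 is the Pdxdc1 probe set that was higher in DBA/2J.

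On the chromosomes, the 34 genes were spread over 12, with 5 each on chromosomes 4, 7 and 13. These shares of 14.7% compare with 6.04%, 7.83% and 3.89% of the array's genes on those chromosomes. In 4 members another member stood within 2 array genes, and in 10 within 20. No such count was made for other genes of the array, so nothing is read from these numbers. On chromosome 17, Crim1 and Fez2 were next to each other on the array, and their RefSeq gene models overlap on opposite strands. Fez2, which encodes a protein of axon growth and transport, was at 85.7, 249, 223, 186 and 184 in C57BL/6J and 20.4, 47.2, 45.9, 50.9 and 44.7 in DBA/2J, with ratios of 2.796, 4.197, 3.86, 3.01 and 3.299. The genes at either side of the pair had ratios of 0.882 to 1.67 (Fam98a) and 0.822 to 1.31 (Vit). Fam98a averaged 254 in C57BL/6J and 215 in DBA/2J. Vit averaged 2.31 and 2.27, too dim for its ratio to show a gap.

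On chromosome 13, 4833420G17Rik and Tmem267 stood with 1 array gene between them. Tmem267, a membrane protein gene, was at 162, 129, 91.3, 103 and 122 in C57BL/6J and 16.4, 16.3, 12.4, 21.2 and 18.6 in DBA/2J, with ratios of 5.49, 4.48, 3.77, 3.19 and 3.99, and its gap was widest before the diet. 4833420G17Rik was at 235, 254, 329.7, 432 and 404 in C57BL/6J and 80.7, 98.5, 77.3, 90.2 and 134 in DBA/2J, with ratios of 2.596, 2.35, 3.71, 4.22 and 2.798. Further probe sets of it had 2.399 to 3.94, 1.89 to 3.22 and 0.767 to 1.32, and one more, below the array median on all arrays, had 0.718 to 1.16. The gene between them, 3110070M22Rik, had ratios of 0.852 to 1.57, and the genes at the outer sides had 1.0 to 1.25 (Paip1) and 0.531 to 0.967 (Ccl28). In C57BL/6J, 3110070M22Rik averaged 9.80 and Ccl28 8.94, so neither was bright enough to show a 2-fold gap, while Paip1 averaged 230. Nnt, the mitochondrial transhydrogenase gene that is partly deleted in C57BL/6J, stood 2 array genes from 4833420G17Rik and was higher in DBA/2J at every week (0.375 to 0.669).

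**Figure D4:**
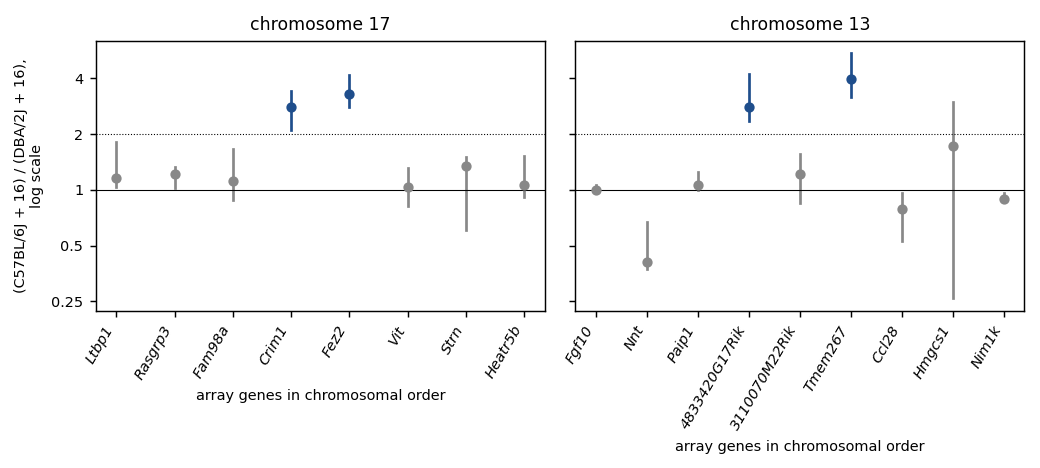
Same-week ratios (middle of 5 weeks as a point, lowest to highest week as a line, log axis) of the array genes around the pair on chromosome 17 (left) and on chromosome 13 (right), in gene order and not to distance. The members (blue) lie above 2 at every week and the genes directly beside each pair lie under 2 at every week. Vit, Ccl28 and 3110070M22Rik were dim, so their ratios cannot show whether they share the gap.

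The diet response, which the rule did not use, set the 4 fed arrays of each strain against its week 0 array. All arrays after week 0 were of fed mice, so the diet cannot be told apart from age or from time since week 0. The fit had strain as a term in limma on quantile normalised log2(signal + 16). A change is on that scale, which understates the change of dim genes. All 34 genes passed the filter on dim genes, which takes the mean over both strains. The rule nearly fixed this, since it asks for signal in C57BL/6J. In DBA/2J, 6 of them (Crim1, Gm13306, Tceanc2, Trim34a, Zfp874a and Zfp945) lay below the array median at every week. Those 6 passed through their C57BL/6J signals. Of the 34 genes 2 changed, Fez2 and Gm7969, or 5.88%, against 64 of 11086 genes (0.577%). Nothing is read from the difference in these shares. Fez2 rose by 0.58 ± 0.11 on the log2 scale (SE, 8 fed arrays against 2, limma adjusted p = 0.0462), and was above week 0 on all 8 fed arrays. Gm7969 changed by −0.84 ± 0.16 (SE, limma adjusted p = 0.0463), and was below week 0 on all 8. Gm7969 passed the filter through its C57BL/6J signals: in DBA/2J it lay below the array median at 4 of 5 weeks, so the DBA/2J values in this estimate cannot be told from background, and the change in C57BL/6J alone was −0.98, with no test. Both calls are close to the threshold and rest on a single week 0 array per strain. With 1 array left out at a time, the call of Fez2 held without DBA/2J week 21 (limma adjusted p = 0.047) and was lost without any of the other 9, at adjusted p from 0.0533 to 0.273. That of Gm7969 held without C57BL/6J week 21 (0.0458) or DBA/2J week 1 (0.0337) and was lost without any of the other 8, at adjusted p from 0.05404 to 0.3002.

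The other 32 genes did not pass. The largest estimates among them were those of Nlrp12 (−1.48 ± 0.44, adjusted p = 0.133) and Plekhb1 (1.08 ± 0.37, adjusted p = 0.177). In limma, 9 of the 34 (26.5%) had an unadjusted p under 0.05, against 1927 of all genes tested (17.4%), and the median change was −0.01, against 0.01. Among the 9 were Gm7969, Nlrp12, 2010315B03Rik and Crim1, whose DBA/2J signals lay below the array median at some or all weeks. The DBA/2J part of their estimates rests on such signals, so nothing is read from the difference in shares. Including Fez2, 5 genes (14.7%, against 11.1% of all genes tested) were above week 0 on all 8 fed arrays, namely 2010315B03Rik, Fez2, Plekhb1, Crim1 and Cep85. Including Gm7969, 6 (17.6%, against 10.004%) were below it on all 8, namely Gm7969, Pdxdc1, Nlrp12, Zfp874a, Tmem267 and Rps6. Of these, Crim1 and Zfp874a lay below the array median in DBA/2J at every week, Gm7969 and Nlrp12 at 4 and 2010315B03Rik at 2 weeks, so the order of those DBA/2J arrays is not distinguishable from background. At the authors' own scale the median of all genes moved to 0.42 and with median centring to 0.25, and then 13 (38.2%) and 6 (17.6%) of the 34 were called, against 41.8% and 16.8% of all genes tested. The direction of Fez2 and Gm7969 was the same under both. Within the strains, the median of fed minus week 0 over the 34 genes was 0.04 in C57BL/6J and −0.17 in DBA/2J. In C57BL/6J, all 4 fed arrays lay above week 0 in 13 genes (38.2%, against 26.9% of all genes tested) and below it in 8 (23.5%, against 23.4%). In DBA/2J, they lay above week 0 in 8 (23.5%, against 27.4%) and below it in 16 (47.1%, against 26.6%). There, 6 of the 34 genes were below the array median at every week and 6 more at some weeks. Nothing is read from these within-strain shares, since the rule chose the genes by the same signals. The difference between the strains was not tested.

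**Figure D5:**
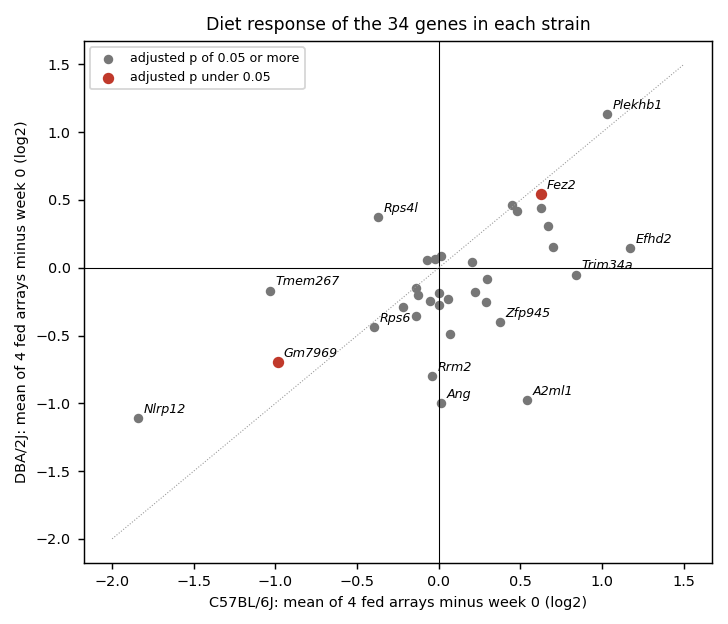
Mean of the 4 fed arrays minus the week 0 array (log2 scale, quantile normalised signal + 16) of each of the 34 genes, in C57BL/6J on the x axis and DBA/2J on the y axis, with the line of equal change dotted. Fez2 (0.62 in C57BL/6J, 0.54 in DBA/2J) and Gm7969 (−0.98 in C57BL/6J, −0.70 in DBA/2J, where its signals were near or below the array median) are in red, the 2 genes that passed the test of the diet response.

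A slope on the log2 number of weeks over the 8 fed arrays was fitted with strain as a term. No gene passed among 11086 (0%), and so none of the 34, while 522 of all genes and 2 of the 34 had an unadjusted p under 0.05 in limma. The largest slope was that of Plekhb1, 0.28 ± 0.05 per doubling of weeks (SE, 8 fed arrays, limma adjusted p = 0.97). In C57BL/6J its signal was higher at weeks 12 and 21 than at weeks 1 and 4, and in DBA/2J week 1 was the lowest of the fed arrays.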

How the data were processed

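Hybridisation signals of 10 liver arrays were used. Trizol was used for extraction per the labels' protocols. Per the submitters' processing notes, the authors computed the signal intensities with GCOS, whose version and scaling are not given in the sources used here. The deposited intensities are linear and the array medians differ. The table held 45101 probe sets. After leaving out 64 controls, 34945 had 1 symbol in the platform annotation, 932 had several and 9160 had none. RefSeq (GRCm38.p6) held the gene identifier of 34741 of the 34945.

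The members and lists were chosen with earlier results of these data known. For the tests, signals were quantile normalised, and genes were kept where log2(signal + 16) of their probe set had a mean above the median of all probe sets. Fits used R 4.3.3 and limma 3.58.1 (lmFit, eBayes with trend) across all genes kept, with Benjamini-Hochberg adjustment and a threshold of 0.05. Figures were drawn with matplotlib 3.10.9 in Python 3.11.15. Both fits were tested on simulated data with known changes. Nothing states that further pools of a strain and week exist, so p-values measure the spread over weeks. Members were described in full by rule: the 3 that mark the set, those with the largest smallest ratio, the highest C57BL/6J mean or the most variable ratio, those that passed a test, had a probe set 2-fold the other way, stood beside another member, lay nearest the threshold or fell in a listed family. Values of further members and of neighbouring genes were added after they were seen. The alternatives were other added amounts, scales, filters, folds and probe set choices, and each array or week left out in turn.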

Additional observations from a re-analysis of the deposited data

Results flagged for a closer look

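In each gene and strain the 5 arrays were checked for 1 array far from the rest on the log2(signal + 16) scale (Dixon's ratio above 0.71). Of 68 such groups, 12 held one, where chance flags about 1 in 20 groups. The C57BL/6J array of week 0 was low in Zfp874a (99.2 against 125 to 133 at the other weeks), Pttg1 (713 against 1138 to 1226), Zfp945 (36.4 against 70.4 to 88.8), Crim1 (20.2 against 46.98 to 54.7) and Pxdc1 (267 against 438 to 486). These are deposited values, and the week 0 arrays had the lowest array median of each strain. In DBA/2J at week 0, Fez2 was low (20.4 against 44.7 to 50.9) and Nlrp12 high (24.04 against 4.65 to 7.52). The DBA/2J array of week 4 was low in Pdxdc1 (14.7 against 26.8 to 31.9) and Zfp874a (1.33 against 6.58 to 9.11). Rrm2 was high in C57BL/6J at week 1 (432 against 83.4 to 124). Near background, DBA/2J was high in Gm13306 at week 1 (9.799 against 1.09 to 2.47) and in Tceanc2 at week 21 (3.93 against 0.779 to 1.502). After quantile normalisation 2 of the 12 arrays stood as far from the rest, those of Nlrp12 and Gm13306, and 10 did not. For Zfp874a in C57BL/6J the direction turned, with week 0 the highest of the 5 arrays (137 against 105 to 127).

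In 4 genes every fed array of one strain lay above its week 0 array and every fed array of the other strain below it, after quantile normalisation. The difference between the strains in fed minus week 0 (C57BL/6J minus DBA/2J) was 0.54 on the log2 scale in Pttg1, 0.40 in Rpgrip1, 0.78 in Zfp945 and −0.74 in Rps4l. In DBA/2J, Zfp945 lay below the array median at every week. These differences were not tested, since they are made of the same-week ratios that chose the genes, and each rests on 1 week 0 array per strain. The share of such genes among all genes tested was not counted, so nothing is read from their number.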

How the results depend on the processing

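The number of genes that met the rule depended on its constants. It was 34 as stated, 80 with the 10th percentile of all values (1.05) added in place of 16, 11 with 64 added, 105 at a fold of 1.5, 10 at a fold of 3, and 56 with the probe set of largest variance. The same 34 were among the 80 and the 105, and the 11 and the 10 were all among the 34. This nesting follows from the arithmetic of the rule and says nothing of its stability. With each same-week pair left out in turn the count, which cannot fall when a condition is dropped, ranged from 35 to 56, the highest without week 0. The geometric mean of all probe sets gave 23, of which 20 were among the 34, and lost Ang and Pdxdc1 among others. The probe set of largest variance lost Pdxdc1 alone of the 34. Dividing each array by its median gave 33, of which 28 were among the 34. Of the other probe sets, 2 had a ratio of 2 or more at every week with 64 added, against 5. Genes called for the diet response numbered 64, against 4633 at the authors' own scale, 1866 with median centring, 37 with the mean of all probe sets, and 0 to 82 with 1 array left out, with 0 and 2 without the DBA/2J or C57BL/6J week 0 array, 25 without DBA/2J week 4 and 32 without DBA/2J week 21. Without the DBA/2J week 0 array, 1385 genes had an unadjusted p under 0.05 in limma. Among the 34 genes, 2 were called, against 1 with the smaller pseudocount of 1.05, 0 with 64, 13 at the authors' own scale, 6 with median centring, 0 with no filter, 1 with the mean of all probe sets, and 0 to 1 with 1 array left out. No gene was called for the slope under any of 16 alternatives. No paired analysis was possible because both fits compare weeks, so that a block for week would absorb the contrast. Without detection calls in the values used here, signals near the array median cannot be told from background.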
